A study of Homo sapiens with 8 samples.

Results

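The genes described here are 43 genes of G2, mitosis and cytokinesis, listed by symbol for what they do in cell division, with no cutoff on their values in these libraries. All 43 symbols matched a row of the count table, which holds 86369 genes. Of these genes, 41 passed the filter on low counts and were tested among 13840 genes; NUSAP1 and ESPL1 did not pass. HepG2, a human liver cancer cell line, received by lipofection a siRNA directed at NAT10 (the siNAT10 group) or a negative control siRNA in its place (the siControl group). RNA was taken 2 days after transfection, and 3' mRNA-seq libraries were made from 4 replicates of each group. Replicates 1 and 2 of both groups carry the label batch 1, and replicates 3 and 4 the label batch 2; what a batch was is not stated. All libraries come from the same cell line, and the siRNA is the only stated difference between the groups. NAT10 is the enzyme that acetylates cytidines in RNA.

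Most of these genes are transcribed mainly late in the cell cycle, so in a growing culture their mRNA follows the share of cells in G2 and mitosis. Cyclin B with CDK1 starts mitosis, kinesins and microtubule-binding proteins build the spindle, and the kinetochore joins each chromosome to it. The spindle assembly checkpoint holds back CDC20 and the anaphase-promoting complex until all chromosomes are attached. Destruction of securin and cyclin B then lets the sister chromatids part, and the central spindle and the contractile ring divide the cell. Transcription of the group is held down in quiescent cells by the DREAM complex and driven in G2 by MYB-MuvB and FOXM1. These complexes act at a promoter element called the cell cycle genes homology region (CHR), often near boxes bound by NF-Y.

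The promoter stretches of 5 members are shown because they carry the element that the group is known for. KIF20A was the only member that passed the test. KIF4A and NDC80 had siNAT10 libraries that all lay below the siControl libraries. CCNB1 was taken as the textbook example and ANLN as a member that was not lower, both by choice. Each stretch runs 5′ to 3′ on the gene's strand from 120 bases before to 20 bases after the RefSeq transcription start (GRCh38.p14). Capitals mark the CHR (TTTGAA or TTTAAA, or the reverse complement TTCAAA) and the NF-Y box (CCAAT, or ATTGG on the other strand).
KIF20A, chr5:138178992-138179131, plus strand: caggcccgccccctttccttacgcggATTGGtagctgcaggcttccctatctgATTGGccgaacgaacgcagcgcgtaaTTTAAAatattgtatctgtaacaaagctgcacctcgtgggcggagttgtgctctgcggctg
KIF4A, chrX:70289984-70290123, plus strand: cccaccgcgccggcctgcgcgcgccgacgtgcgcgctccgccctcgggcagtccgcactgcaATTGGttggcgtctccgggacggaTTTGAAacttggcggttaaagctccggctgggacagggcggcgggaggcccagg
NDC80, chr18:2571437-2571576, plus strand: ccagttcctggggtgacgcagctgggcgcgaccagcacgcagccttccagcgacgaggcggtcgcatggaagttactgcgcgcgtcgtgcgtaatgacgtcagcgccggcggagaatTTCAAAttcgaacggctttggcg
CCNB1, chr5:69167030-69167169, plus strand: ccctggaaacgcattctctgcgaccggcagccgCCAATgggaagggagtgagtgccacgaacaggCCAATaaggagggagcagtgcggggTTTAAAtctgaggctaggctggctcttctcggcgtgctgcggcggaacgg
ANLN, chr7:36389742-36389881, plus strand: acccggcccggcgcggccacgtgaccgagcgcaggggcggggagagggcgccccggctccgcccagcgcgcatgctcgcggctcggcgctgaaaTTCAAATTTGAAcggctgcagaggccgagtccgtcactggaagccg
KIF20A and CCNB1 each hold 1 CHR and 2 NF-Y boxes in this stretch, KIF4A holds 1 of each, and NDC80 has 1 CHR over its start site and no NF-Y box. ANLN, whose mRNA was not lower, carries 2 CHR matches side by side. In all 5, which were picked as carrying the element, the CHR lies within 60 bases before the start or on it. Where NF-Y boxes are present they lie upstream of it. CCNA2, NUF2 and PTTG1, also below both siControl libraries in each batch, are not shown. CCNA2 and NUF2 have 0 matches to either CHR spelling in this stretch. NUF2 has a CHR at bases 17 to 22 after its start, across the end of the stretch. PTTG1 has 1 in each of its 2 stretches, at -29 to -24 in the first and at -84 to -79 in the second.

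RefSeq promoter windows were matched for 36 of the 43 members, in 46 windows that run from 250 bases before to 50 bases after a start. FOXM1, TTK, AURKA, TPX2, BIRC5, UBE2C and BUB3 had no entry in the table used. A CHR in either spelling and on either strand (TTTAAA is its own reverse complement) was found in 37 of the 46 windows, or 80.4%. The same search found one in 24.0% of all 35116 windows, in 41.4% of the 128 windows of other mitosis genes and in 14.0% of the 43 windows of DNA replication genes. A CHR lay wholly within the 60 bases before the start in 47.8% of member windows and 5.09% of all windows. The NF-Y box, searched as CCAAT on both strands, was in 76.1% of member windows against 34.6% of all, and both motifs together in 63.0% against 9.27%. Of the 36 genes, 33 had a CHR of either spelling in at least 1 window. AURKB, BUB1 and CCNA2 matched neither spelling, and other spellings of the element were not searched. These are matches of letters and say nothing of binding in HepG2.

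**Figure D1:**
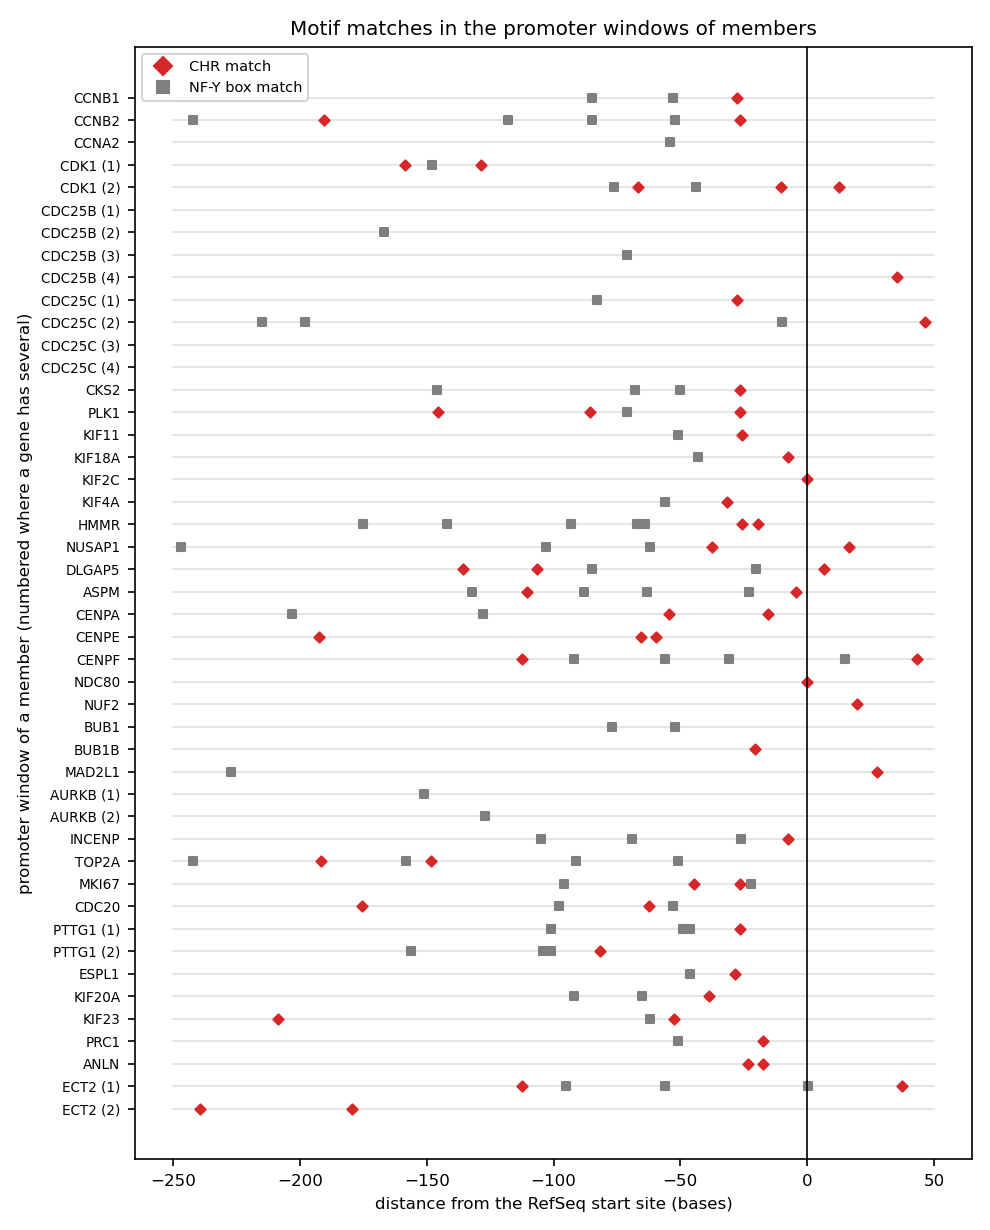
Positions of CHR matches (diamonds) and NF-Y box matches (squares) in the 46 RefSeq promoter windows of 36 members, against distance from the start site in bases; numbered rows are further windows of 1 gene. CHR matches are seen in 37 windows, many of them within 60 bases before the start, and NF-Y boxes in 35 windows, mostly upstream of the CHR.

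The knockdown was seen in the NAT10 counts. As CPM, the count scaled to a common library size by TMM, NAT10 stood at 44.7, 39.2, 77.8 and 48.9 in siControl replicates 1 to 4 and at 13.1, 12.2, 20.1 and 22.3 in siNAT10 replicates 1 to 4. It fell to 31.6% of siControl (log2 fold change -1.66, SE 0.14, edgeR adjusted p = 2.0e-05), with no overlap between the groups. Libraries held 9731718 to 27977110 counts and 19155 to 21825 genes with a count. Among all 13840 genes, 202 fell and 113 rose in siNAT10 (175 rose with the replicate number as a block), and the median log2 fold change of all genes was -0.0024. Summed hepatocyte markers ran from 17420 to 19740 CPM in siControl and from 13010 to 15320 in siNAT10. Of the 10 hepatocyte markers, 1 (TF, adjusted p = 0.023) was called, and APOB was listed at 0 CPM in 7 of 8 libraries. The sum was carried mainly by AHSG (mean 8898 CPM in siControl, 6779 CPM in siNAT10) and ALB (4411 and 3422 CPM), while FGB (log2 fold change 0.37), HNF4A (0.09) and APOA1 (-0.01) were not called. The 6 fibroblast markers summed to at most 1.38 CPM and the 3 endothelial markers to at most 0.80 CPM. Of the 5 blood markers PTPRC, CD3E and HBB were at 0, and the sum came almost wholly from LYZ. LYZ fell too (475 CPM in siControl, 355 CPM in siNAT10, adjusted p = 0.043). The part of these marker differences in the results below was not tested. The labels do not say whether replicates were separate cultures, so p-values measure only the spread between these libraries.

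The mitotic genes stood slightly lower in siNAT10, and KIF20A alone among them passed the test. Of 41 members tested, 1 fell at an adjusted p under 0.05, against 1.46% of all genes tested, and none rose (0.816% of all genes rose). At an unadjusted p under 0.05, 12 members were lower, against 8.24% of all genes, and 0 were higher, against 7.46%. The fitted fold change was below 0 for 35 of the 41 members, where 50.3% of all genes tested had one below 0. The members' median log2 fold change was -0.18, from -0.59 for KIF20A to 0.17 for HMMR. DESeq2 also called KIF20A alone among the members. Every siNAT10 library lay below every siControl library for 3 members, KIF4A, NDC80 and BUB3 (3.15% of all genes), and above for 0 (2.25%). Every siNAT10 library lay below both siControl libraries of its own batch for 6 members, namely CCNA2, KIF4A, NDC80, NUF2, BUB3 and PTTG1 (7.90% of all genes), and above them for 0 (6.76%). In RNA from whole cultures, fewer cells in G2 and mitosis and less of each mRNA per cell cannot be told apart.

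**Figure D2:**
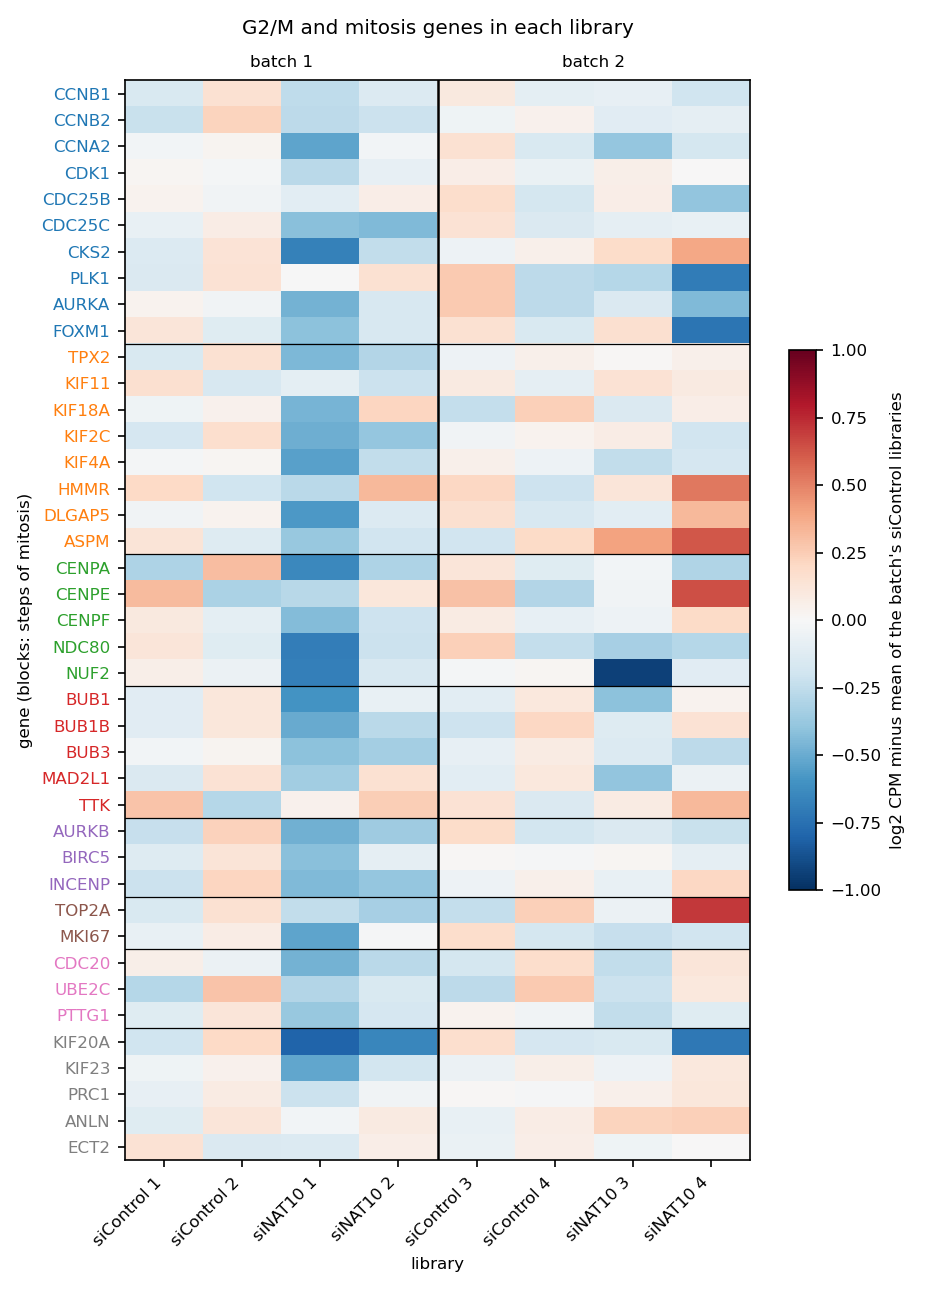
Heat map of the 41 members tested (rows, grouped by step) in the 8 libraries (columns), coloured by the log2 ratio of CPM to the mean of the siControl libraries of the same batch. The siNAT10 replicate 1 column is low across most steps, with a member median of -0.42, and the siNAT10 replicate 4 column is mixed, with a median of 0.0006.

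The siNAT10 libraries differed in how far the members lay below siControl. Relative to the siControl libraries of the same batch, the median log2 ratio over the 41 members tested (0.5 CPM added to each value) was -0.42 in siNAT10 replicate 1, -0.16 in replicate 2, -0.08 in replicate 3 and 0.0006 in replicate 4. Replicate 1 had 35 of the 41 members tested below both siControl libraries of its batch, replicate 2 had 25, replicate 3 had 13 and replicate 4 had 18. For all genes tested the shares were 37.5%, 35.3%, 32.9% and 38.1% in the same order. Summed over the members, siControl libraries held 3156, 3633, 3310 and 3130 CPM and siNAT10 libraries 2671, 2998, 3007 and 3161 CPM, so that the sum of siNAT10 replicate 4 lay within the siControl range. Without siNAT10 replicate 1 the member median was -0.11 and 2 members were lower at an unadjusted p under 0.05. Without siControl replicate 2 the median was -0.11 with 6 such members, and without siControl replicate 3 the count was 6 as well. Leaving out siControl replicate 1 gave 8 such members, and leaving out any of the other 4 libraries gave 10 to 13. With all libraries 8.24% of all genes were lower at that threshold. That share is not given for the fits with a library left out, so their counts have no background beside them.

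**Figure D3:**
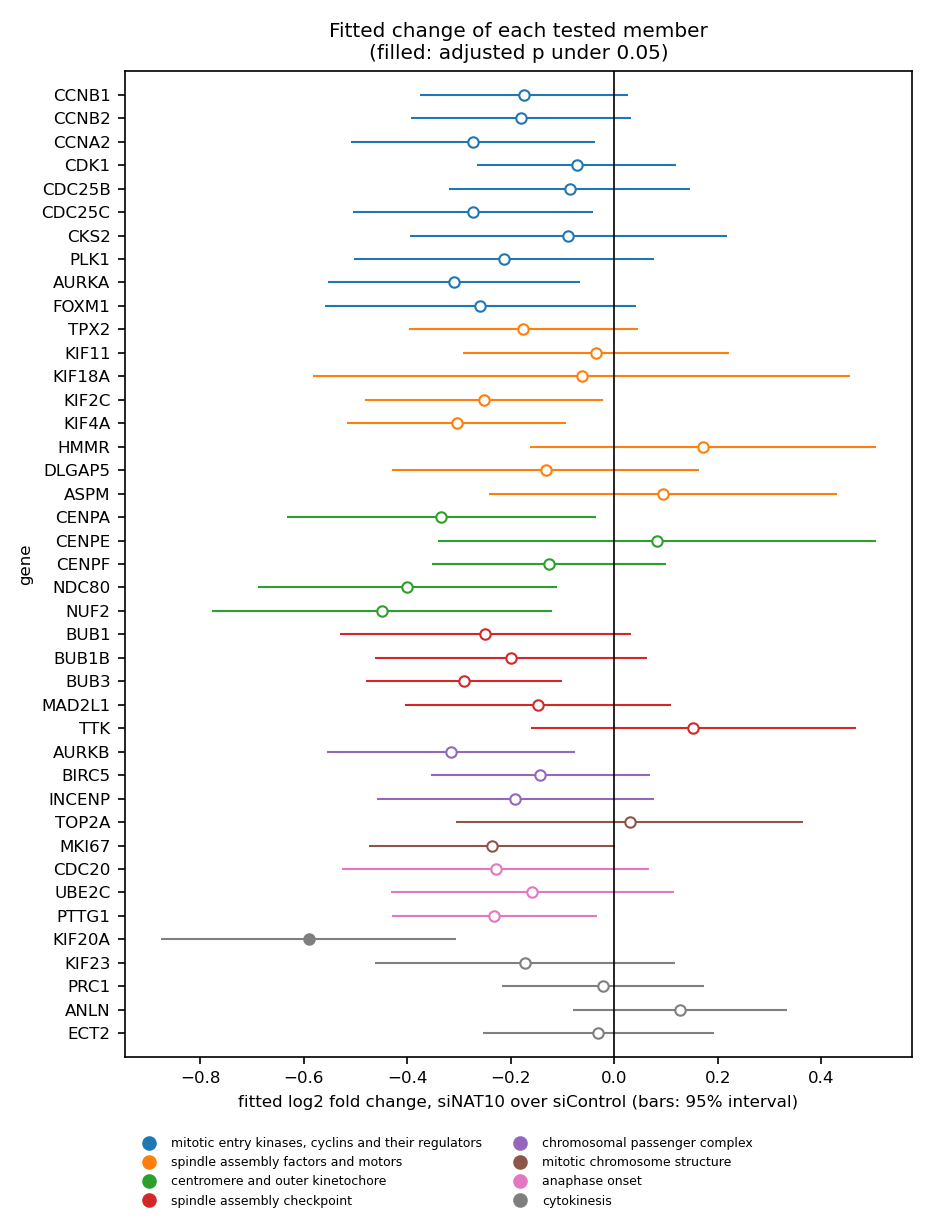
Fitted log2 fold change (siNAT10 over siControl, batch in the model) of the 41 members tested, by step. Bars are the 95% interval from the standard error and a normal distribution, and filled points passed the test. Points for 35 members lie left of 0, KIF20A at -0.59 lies farthest, and bars of most members cross 0.

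All 10 genes of mitotic entry (kinases, cyclins and their regulators) had a fit below 0, from -0.31 for AURKA to -0.07 for CDK1, with a median of -0.20. None of the 10 was called by edgeR or DESeq2, and 3 of them were lower at an unadjusted p under 0.05. CCNA2, the A-type cyclin of S phase and mitotic entry, stood at 49.0, 50.7, 58.6 and 47.5 CPM in siControl and at 34.5, 48.8, 40.2 and 46.6 CPM in siNAT10. In each batch both siNAT10 values were the lower ones, although siNAT10 replicate 2 came within 0.03 log2 units of its batch's siControl mean (log2 fold change -0.27, SE 0.12, adjusted p = 0.28). AURKA, the centrosomal kinase that matures spindle poles, stood at 215, 204, 249 and 172 CPM in siControl and at 151, 188, 188 and 152 CPM in siNAT10. The AURKA groups overlapped only through siControl replicate 4 (-0.31, SE 0.12, adjusted p = 0.23). CDC25C, a phosphatase that switches CDK1 on, stood at 29.1, 32.4, 25.6 and 20.7 CPM in siControl and at 22.9, 22.5, 21.6 and 21.9 CPM in siNAT10. Its siNAT10 values were nearly the same in all libraries, while siControl was higher in batch 1 (-0.27, SE 0.12, adjusted p = 0.27).

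CDK1 itself had a fold change of -0.07 (95% interval from -0.26 to 0.12), CCNB1 of -0.17 (-0.38 to 0.03) and CCNB2 of -0.18 (-0.39 to 0.03). CCNB1 stood at 69.4, 85.9, 141 and 123 CPM in siControl and at 64.5, 70.0, 125 and 115 CPM in siNAT10, so that its batches differed far more than its groups. PLK1, a kinase used at every stage of mitosis, stood at 184, 224, 342 and 238 CPM in siControl and at 203, 226, 234 and 176 CPM in siNAT10. It was lower in batch 2 (-0.50) and not in batch 1 (0.08), and siControl replicate 3 was its highest library. CDC25B had a mean of 221 ± 27.2 CPM (SD, n = 4) in siControl and 208 ± 28.8 CPM (SD, n = 4) in siNAT10. FOXM1, the transcription factor that drives many of these genes, stood at 52.6, 44.4, 70.0 and 56.7 CPM in siControl and at 36.1, 43.2, 70.3 and 37.7 CPM in siNAT10 (-0.26, SE 0.15, adjusted p = 0.45). CKS2, a small CDK-binding subunit, had a fit of -0.44 in batch 1 and 0.30 in batch 2.

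Spindle factors and motors were mixed. Of 8 tested, 6 had a fit below 0 and none was called by edgeR or DESeq2, 2 were lower at an unadjusted p under 0.05, and the median was -0.10. KIF4A, a chromosome-bound kinesin that also shortens the anaphase midzone, stood at 34.5, 35.4, 34.2 and 31.9 CPM in siControl and at 23.8, 29.5, 27.8 and 29.3 CPM in siNAT10. The KIF4A groups did not overlap, and siNAT10 replicate 1 was its lowest library (-0.30, SE 0.11, adjusted p = 0.17). KIF2C, a kinesin that takes microtubule ends apart, stood at 69.7, 88.1, 77.9 and 82.0 CPM in siControl and at 55.7, 59.7, 84.4 and 69.9 CPM in siNAT10. Its siNAT10 replicate 3 was above 3 of the siControl libraries (-0.25, SE 0.12, adjusted p = 0.31). TPX2, which activates AURKA on the spindle, stood at 217, 268, 182 and 195 CPM in siControl and at 176, 196, 190 and 196 CPM in siNAT10, and so differed in batch 1 (-0.38) and not in batch 2 (0.03).

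HMMR and ASPM, proteins of the spindle and its poles, had fits above 0. HMMR stood at 15.7, 11.8, 11.0 and 8.09 CPM in siControl and at 11.2, 17.2, 10.3 and 13.8 CPM in siNAT10, with wide overlap (0.17, interval from -0.16 to 0.51). ASPM stood at 15.7, 13.0, 9.23 and 12.2 CPM in siControl and at 10.9, 12.4, 14.2 and 16.6 CPM in siNAT10. In ASPM both siNAT10 libraries lay below both siControl libraries in batch 1 (-0.30) and above both in batch 2 (0.53). DLGAP5, which steadies kinetochore microtubules, had a fit of -0.13 (-0.43 to 0.16), KIF11, the motor that pushes the poles apart, of -0.04 (-0.29 to 0.22) and KIF18A, which damps chromosome movement, of -0.06 (-0.58 to 0.46). KIF18A had the lowest mean of the tested members, 2.30 CPM. The spindle median moved with single libraries: leaving out siNAT10 replicate 1 gave -0.02, siControl replicate 4 gave -0.15, and siNAT10 replicate 2 or 4 gave -0.16.

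Genes of the centromere and the outer kinetochore had a median of -0.33 over 5 genes, of which 4 had a fit below 0. None was called by edgeR or DESeq2, 3 were lower at an unadjusted p under 0.05, and the median was -0.16 without siControl replicate 2. NUF2 and NDC80 are partners in the complex that grips the microtubule end. NUF2 stood at 18.7, 17.2, 13.6 and 14.0 CPM in siControl and at 11.0, 16.0, 6.98 and 12.7 CPM in siNAT10. The lowest NUF2 value was in siNAT10 replicate 3, and both siNAT10 libraries were below their siControl libraries in each batch (-0.45, SE 0.17, adjusted p = 0.19). NDC80 stood at 16.7, 14.0, 19.4 and 13.9 CPM in siControl and at 9.30, 13.1, 12.9 and 13.4 CPM in siNAT10. Its groups did not overlap, but siNAT10 replicate 4 was close below siControl replicate 4 (-0.40, SE 0.15, adjusted p = 0.19). CENPA, the histone H3 variant that marks the centromere, stood at 15.9, 24.5, 25.0 and 21.0 CPM in siControl and at 12.5, 15.9, 22.5 and 18.6 CPM in siNAT10 (-0.33, SE 0.15, adjusted p = 0.30). The CENPA groups overlapped, also within batch 2. CENPF, a large protein of the outer kinetochore, stood at 102, 89.0, 73.1 and 65.0 CPM in siControl and at 70.4, 82.5, 66.7 and 78.9 CPM in siNAT10 (-0.13, interval from -0.35 to 0.10). The CENPF fit was -0.32 in batch 1 alone and 0.08 in batch 2 alone. CENPE, a kinesin that moves chromosomes to the spindle equator, had a fit of 0.08 (-0.34 to 0.51).

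Among the checkpoint genes, 4 of 5 had a fit below 0, none was called by edgeR or DESeq2, and BUB3 alone was lower at an unadjusted p under 0.05. BUB3 docks BUB1 and BUB1B on the kinetochore. It stood at 97.4, 101, 82.6 and 92.3 CPM in siControl and at 74.8, 78.6, 79.2 and 72.6 CPM in siNAT10. The BUB3 groups did not overlap, and it had the smallest adjusted p of the members after KIF20A (-0.29, SE 0.10, adjusted p = 0.14). BUB1, a kinase, had a fit of -0.25 (-0.53 to 0.03), BUB1B of -0.20 (-0.46 to 0.06) and MAD2L1, which holds CDC20 in check, of -0.15 (-0.40 to 0.11). TTK, the kinase at the top of the checkpoint, stood at 12.8, 8.51, 7.82 and 6.29 CPM in siControl and at 10.8, 12.5, 7.45 and 8.90 CPM in siNAT10, and the groups overlapped (0.15, -0.16 to 0.47). The median over the 5 genes was -0.20, and it was -0.11 both without siControl replicate 2 and without siNAT10 replicate 1.

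All 3 members of the chromosomal passenger complex had a fit below 0 and none was called by edgeR or DESeq2. AURKB, its kinase, stood at 273, 377, 298 and 231 CPM in siControl and at 230, 252, 237 and 225 CPM in siNAT10. Its siNAT10 libraries stayed within a narrow band that reached into the siControl range through siControl replicate 4 (-0.31, SE 0.12, adjusted p = 0.21). BIRC5, or survivin, which brings the complex to the centromere, had a fit of -0.14 (-0.35 to 0.07), and INCENP, its scaffold, of -0.19 (-0.46 to 0.08). The median of the 3 was -0.19, and it moved to -0.06 without siControl replicate 2, to -0.13 with siNAT10 replicate 1 left out and to -0.29 with replicate 4 left out. CDCA8, a further subunit that is not among the 43, is given with the other mitosis genes.

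TOP2A and MKI67, proteins of mitotic chromosome structure, differed in the sign of the fit. TOP2A, which untangles sister DNA, stood at 475, 586, 378 and 524 CPM in siControl and at 445, 419, 427 and 729 CPM in siNAT10. Its siNAT10 replicate 4 was the highest of all 8 libraries, and the fit was -0.29 in batch 1 and 0.36 in batch 2. MKI67, which coats mitotic chromosomes, stood at 93.3, 103, 94.1 and 73.6 CPM in siControl and at 67.8, 97.5, 70.7 and 72.8 CPM in siNAT10. In batch 1 siNAT10 replicate 2 lay within the siControl range, and in batch 2 both siNAT10 values lay just below siControl replicate 4 (-0.24, interval from -0.47 to 0.00, adjusted p = 0.36).

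Of the 4 genes of anaphase onset, 3 were tested and had fits below 0, none was called by edgeR or DESeq2, and PTTG1 was lower at an unadjusted p under 0.05. PTTG1 is securin, the inhibitor of separase. It stood at 104, 124, 98.4 and 93.4 CPM in siControl and at 87.3, 101, 80.6 and 88.1 CPM in siNAT10, below both siControl libraries in each batch (-0.23, SE 0.10, adjusted p = 0.27). CDC20, the activator of the anaphase-promoting complex, stood at 9.96, 9.15, 10.5 and 13.5 CPM in siControl and at 6.73, 7.82, 9.96 and 13.0 CPM in siNAT10, and the groups overlapped, also within batch 2 (-0.23, interval from -0.53 to 0.07). UBE2C, its ubiquitin-conjugating enzyme, stood at 77.5, 115, 88.7 and 127 CPM in siControl and at 77.0, 85.0, 91.7 and 114 CPM in siNAT10, with overlap in both batches (-0.16, interval from -0.43 to 0.12). ESPL1, or separase, was listed at 0 in all 8 libraries. With 150446672 counts in all, a count of 0 allows up to 0.0199 CPM, at 3 counts over all libraries and for counting error only.

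KIF20A is the kinesin that carries the passenger complex to the central spindle for cytokinesis (ENSG00000112984, chromosome 5, 138178719 to 138187723, plus strand, GENCODE 44 on GRCh38). It stood at 27.0, 35.6, 32.3 and 25.6 CPM in siControl and at 17.6, 19.5, 25.8 and 17.3 CPM in siNAT10. The siNAT10 libraries were lower except for replicate 3, which lay just above siControl replicate 4 of the same batch. KIF20A fell to 66.4% of siControl (log2 fold change -0.59, SE 0.15, edgeR adjusted p = 0.043). The fold change was -0.74 in batch 1 alone (adjusted p = 0.019) and -0.42 in batch 2 alone (adjusted p = 0.72). The call was lost without a batch term (adjusted p = 0.31), with library size alone as the scale (0.058) and after thinning to the smallest library (0.075). It was also lost on leaving out siControl replicates 1, 2 or 3 or siNAT10 replicates 1, 2 or 4, with adjusted p from 0.081 to 0.161, while the fold change stayed between -0.74 and -0.47 in all 8 such fits.

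The other cytokinesis genes had smaller fitted changes than KIF20A. For KIF23 the fit was -0.35 in batch 1, where both siNAT10 libraries lay below both siControl libraries, and 0.03 in batch 2. KIF23, the motor of the centralspindlin complex, had a mean of 9.76 ± 0.42 CPM (SD, n = 4) in siControl and 8.76 ± 1.59 CPM (SD, n = 4) in siNAT10 (-0.17, interval from -0.46 to 0.12). PRC1, which bundles midzone microtubules, stood at 62.4, 69.9, 67.8 and 66.5 CPM in siControl and at 56.9, 64.5, 69.4 and 72.8 CPM in siNAT10, so that siNAT10 was lower in batch 1 and higher in batch 2 by small amounts. ECT2, the exchange factor that switches RhoA on at the cell equator, had a fit of -0.03 (-0.25 to 0.19). ANLN, the ring scaffold anillin, stood at 42.6, 50.2, 25.3 and 28.2 CPM in siControl and at 45.3, 49.3, 31.2 and 31.7 CPM in siNAT10 (0.13, -0.08 to 0.33). In batch 2 both ANLN values of siNAT10 were above both siControl values. The 4 genes other than KIF20A included none that was called by edgeR or DESeq2 or reached an unadjusted p under 0.05.

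**Figure D4:**
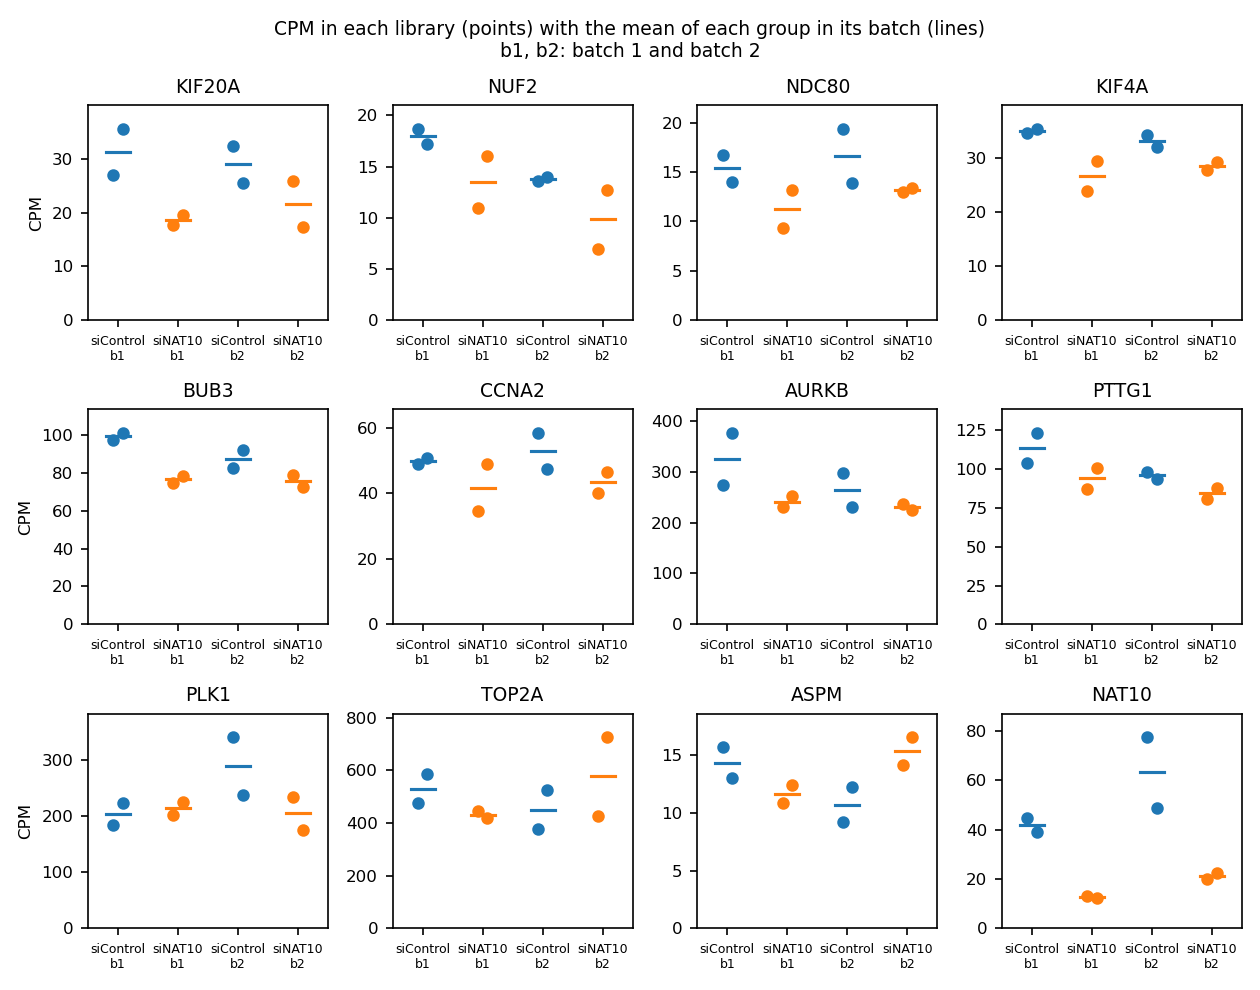
CPM (linear axis from 0) of 11 members and NAT10 in the 8 libraries, by group and batch, with 1 point per library. KIF4A, NDC80 and BUB3 show siNAT10 points below all siControl points, while TOP2A has its highest point, 729 CPM, in siNAT10 replicate 4 and ASPM goes opposite ways in the 2 batches.

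Fits below 0 were more numerous in batch 1 than in batch 2. In batch 1 alone, 37 of 41 members had a fit below 0 (50.8% of all genes in that fit), with a median of -0.29. In batch 2 alone, 25 had one (49.5% of all genes), with a median of -0.06. Both siNAT10 libraries lay below both siControl libraries for 24 members in batch 1 (22.4% of all genes) and for 9 in batch 2 (18.5%), the latter being CCNB2, CCNA2, PLK1, KIF4A, NDC80, NUF2, BUB3, MKI67 and PTTG1. At an unadjusted p under 0.05, 15 members were lower in batch 1 (7.02% of all genes) and 1, PLK1, in batch 2 (3.79%), where ASPM was higher (3.25% of all genes were). Batch 1 alone gave 1 member called lower, KIF20A (0.758% of all genes), and batch 2 alone gave 0 members and 0% of 13433 genes in edgeR. The difference between the batches was tested as an interaction term. It was at an unadjusted p under 0.05 for 2 members, CKS2 and ASPM (3.04% of all genes), and at an adjusted p under 0.05 in edgeR for 0 members and 0% of all genes, with a smallest adjusted p of 0.9996. DESeq2 gave 1 gene and 0 members. The lower values of the members are thus not shown to differ between batches.

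**Figure D5:**
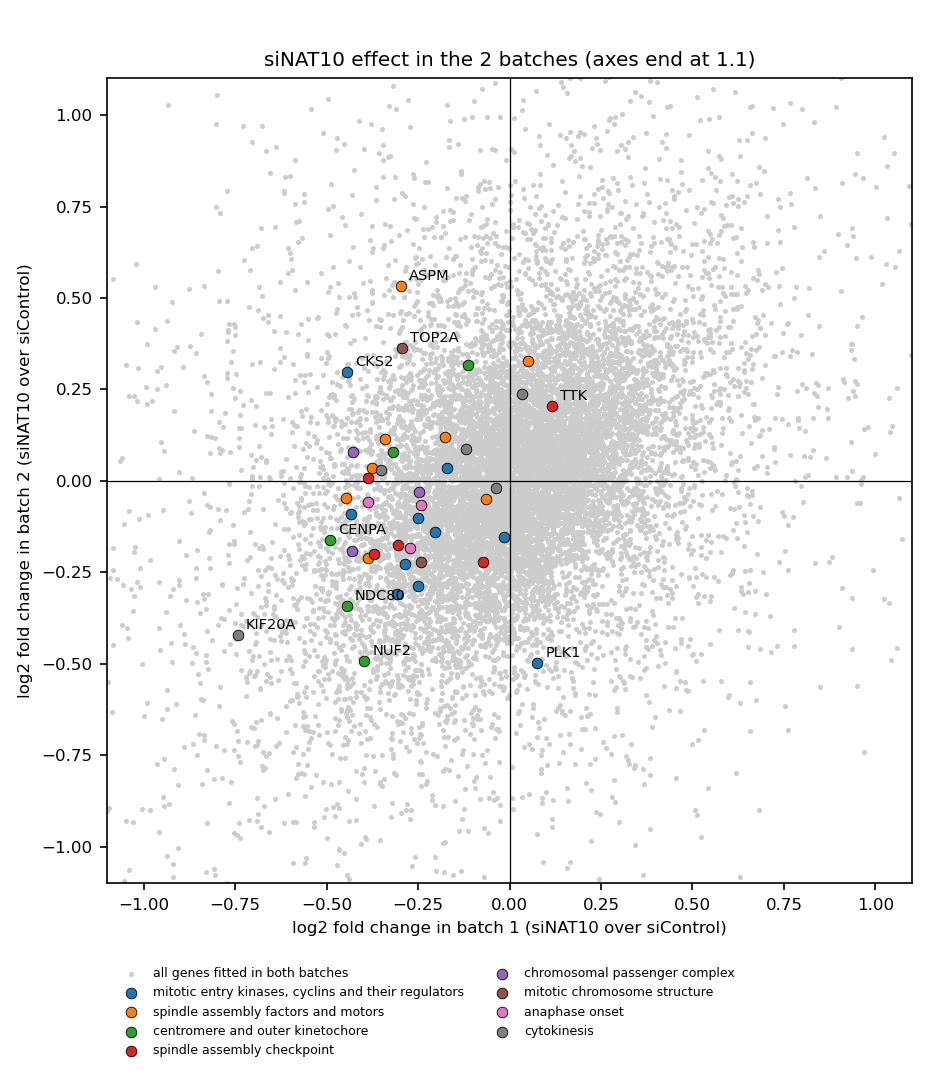
Log2 fold change (siNAT10 over siControl) fitted in batch 1 alone (x axis) and batch 2 alone (y axis) for the 41 members, coloured by step, over all 13261 genes fitted in both (grey; 349 genes beyond 1.1 on either axis are not drawn). Of the members, 24 lie below 0 in both batches, 13 in batch 1 only, 1 (PLK1) in batch 2 only and 3 in neither.

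The batches also differed in the level of some members, whatever the siRNA. With siRNA in the model, CCNB1 (log2 difference 0.80, batch 2 over batch 1) and CDC20 (0.48) were called higher in batch 2, or 2 of 41 members against 13.0% of all genes. ANLN (-0.69) and TTK (-0.56) were called lower in batch 2, or 2 of 41 against 12.2%. For CCNB1 and ANLN these differences were several times those between the siRNA groups. The number of members called between batches, 4, became 2 when siNAT10 replicate 2 or siControl replicate 4 was left out, 8 when it was siNAT10 replicate 1 and 10 when it was siNAT10 replicate 4. Of all genes, 3500 were called between batches with all libraries, and 2531, 2824, 2857 and 3627 in these fits in the same order.

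The sign of the fit depended on single libraries for some members. For 9 members (ASPM, CDC25B, CENPE, CKS2, ECT2, KIF11, KIF18A, PRC1 and TOP2A) the sign turned when some single library was left out. KIF11, PRC1 and ECT2 also turned to above 0 when library size alone set the scale, with values of 0.00, 0.02 and 0.01. For the other 32 members tested, no left-out library turned the sign.

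Of the other mitosis genes, listed by function, 103 of 109 were tested: 58 had a fit below 0 and 45 above. Their median was -0.04, and 1 fell at an adjusted p under 0.05, against 1.46% of all genes. At an unadjusted p under 0.05, 13 were lower, against 8.24% of all genes, and 6 were higher, against 7.46%. CDCA8, or borealin, a subunit of the passenger complex beside AURKB, BIRC5 and INCENP (ENSG00000134690, chromosome 1, 37692481 to 37709719), stood at 78.2, 112, 112 and 143 CPM in siControl and at 62.2, 53.9, 101 and 93.3 CPM in siNAT10. All its siNAT10 libraries were below both siControl libraries of their batch, and it fell by 0.55 on the log2 scale (SE 0.13, adjusted p = 0.034). That call was lost with library size alone (0.053), after thinning (0.055), in batch 2 alone (0.70), without a batch term (0.59), and without siControl replicates 1, 2 or 4 or siNAT10 replicates 1, 2 or 3 (0.051 to 0.152). In the class of other spindle, midzone and cytokinesis genes, which holds CDCA8, 20 of 24 had a fit below 0 with a median of -0.15. Subunits of the anaphase-promoting complex and genes that act with it or on it had 5 of 17 below 0 (median 0.04). The largest change among them was in UBE2S, at -1.20 (SE 0.44, edgeR adjusted p = 0.18), with only 4 to 28 counts in a library. UBE2S was at -2.25 in batch 1 and -0.28 in batch 2. Condensin genes had 3 of 8 below 0 (0.06), with SMC4 the largest at 0.24 (adjusted p = 0.35). Cohesin genes had 3 of 10 below 0 (0.06), with SMC3 the largest at 0.38 (adjusted p = 0.29). Other kinetochore and centromere genes had 12 of 21 below 0 (-0.04), with SKA3, a kinetochore protein, at -0.41 (adjusted p = 0.18). None of these 21 was called. At an unadjusted p under 0.05, 5 of them were lower (8.24% of all genes) and 0 higher (7.46%). In the class that holds CDCA8, 6 were lower and 1 was higher at that threshold.

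Among the genes known to control this group, none passed the test. Among DREAM and MYB-MuvB genes 5 of 10 had a fit below 0 and none was called, with TFDP1, the E2F partner, at 0.36 (adjusted p = 0.072), LIN54, the subunit that reads the CHR, at 0.33 (adjusted p = 0.13) and LIN9 at 0.34. MYBL2 was at -0.11 and E2F4 at -0.06. The G2 checkpoint and entry genes had 10 of 13 below 0 and none called. Of these CDKN1A, the p53 target that inhibits CDKs, was at -0.02, the CDK1-inhibiting kinases WEE1 and PKMYT1 at 0.16 and -0.06, CHEK1 at 0.02, GTSE1 at -0.28 and CCNF at -0.35 (adjusted p = 0.14). FBXO5, an inhibitor of the anaphase-promoting complex, was at 0.13. Genes of DNA replication, the preceding phase, had 20 of 38 below 0, 0 called by edgeR, 2 lower and 3 higher at an unadjusted p under 0.05, and a median of -0.02.

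A few members share their 3' end with another gene, and no source used here says whether counting used strand. KIF20A overlaps exons of CDC23 on the other strand at its end. CDC23 had 241 to 607 counts in a library, and KIF20A had 177 to 743. The values of CDC23 were close in the groups (21.0 CPM in siControl, 21.5 CPM in siNAT10, log2 fold change 0.04, edgeR adjusted p = 0.92). The KIF20A value is uncertain to the extent of this overlap, and the part of the overlap in its fall was not tested. CCNA2 overlaps EXOSC9 and FOXM1 overlaps ITFG2 on the other strand, and the values of both members are uncertain to that extent. PLK1 overlaps ERN2 on the other strand, with 0 to 4 counts in a library. PRC1 overlaps a gene model on the same strand, ENSG00000284946, with 0 to 2 counts in a library. The part of these overlaps in the PLK1 and PRC1 values was not tested. KIF4A has a close copy, KIF4B, with at most 3 counts in a library. CKS2 has a related gene, CKS1B, with 79 to 179 counts in a library and up to 40.7% of the CKS2 count, and the CKS2 value is uncertain to that extent. The listed pseudogenes of 10 members and PTTG2 had none. NUSAP1, a spindle protein, had 9 counts over all libraries, and a further gene model, ENSG00000285920, covers its end on the same strand. Since APOB, which HepG2 secretes, is also listed at 0 in 7 of 8 libraries, a 0 for ESPL1 or NUSAP1 in this table is not read as absence.

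The members' fold changes went with the base composition of their transcripts. Over the 41 members Spearman's rho between fold change and transcript GC content was -0.50, that is, members of higher GC content had lower fits, and over 13339 genes it was -0.16. Among single libraries, each set against the siControl mean of its batch, the members' rho was -0.51 in siNAT10 replicate 4, -0.39 in siNAT10 replicate 2, and -0.14 and -0.15 in replicates 1 and 3. Between the 2 siControl libraries of a batch, where the sign depends on which is the reference, its size was 0.53 in batch 1 and 0.12 in batch 2. The median GC content was 42.1% over the 41 members and 48.3% over the 13339 genes, so the members as a list were of lower GC content. The part of base composition in the lower values was not tested, and members share library and depth.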

How the data were processed

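The series holds 8 libraries of HepG2 RNA made with a Lexogen QuantSeq 3' kit, 4 of each group. The deposited values are whole-number counts per gene. The labels call the table by a name with a prefix, SLAM, which the deposited table lacks and no label explains; both names were taken as 1 table, and its counts as ordinary 3' counts. Per the submitters' processing notes, the authors trimmed reads with Trim Galore 0.6.10 (cutadapt 3.5), aligned them with STAR 2.7.9a to GRCh38 and counted them with featureCounts (Subread). The series text and the sample protocols name kits of opposite orientation, and the strand setting, annotation release and treatment of multi-mapped reads are not given in the sources used here. Identifiers were matched to GENCODE 44 (61458 of 86369), and unmatched identifiers held 1.27 to 1.65% of counts.

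Counts were fitted with edgeR 4.0.16 (quasi-likelihood test, TMM scaling, filterByExpr with a minimum count of 10) with batch and siRNA as terms, and p-values were adjusted by Benjamini-Hochberg over all 13840 genes. A gene was called at an adjusted p under 0.05. Models within each batch and with an interaction term were fitted the same way, and CPM are TMM-scaled. The method was tested on simulated data, with 50 genes at each set log2 change. It recovered 24% of the genes set at -0.5, 28% at 0.5, 76% at -1 and 92% at 1, with 10 false calls among unchanged genes. Changes smaller than 0.5, as fitted for most members, were not simulated. A member that was not called is therefore not shown to be unchanged. The members, the lists of other genes and the tests were chosen with earlier results of these data known. Full values were given for members called or at an unadjusted p under 0.05 and, in each step, for the member with the highest mean CPM and the one with the largest fold change. Further members serve as examples. Other genes are named where called, where largest in their class, or as listed regulators. The same replicate numbers occur in both groups, and the deviations of same-numbered libraries from their group means correlated in all 4 pairs (r = 0.44, 0.43, 0.51 and 0.42). Same-numbered libraries also share a batch, and within batches the correlations were -0.08 (pairs 1 and 2) and 0.21 (pairs 3 and 4). Alternatives were DESeq2 1.42.0, RLE factors, library size alone, other filters, no batch term, a replicate block, thinning to 9731718 counts, each batch alone and leaving out each library. GC content and single-library leave-outs of step medians were added after seeing the data. Promoter windows came from RefSeq (GRCh38.p14).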

Additional observations from a re-analysis of the deposited data

Results flagged for a closer look

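In 4 groups of 4 libraries, 1 library stood apart from the other 3 by Dixon's 95% criterion; 102 groups were examined, and chance gives about 5.1. NDC80 stood at 9.30 CPM in siNAT10 replicate 1 and at 12.9 to 13.4 CPM in the other siNAT10 libraries. MKI67 stood at 97.5 CPM in siNAT10 replicate 2, against 67.8 to 72.8 CPM in the others. TOP2A stood at 729.1 CPM in siNAT10 replicate 4, against 419 to 445 CPM. The summed CPM of TOP2A and MKI67 in that library, 801.9, came mostly from TOP2A and stood against 498 to 516 in the others.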

How the results depend on the processing

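Across the 41 members, KIF20A was the only one called under any alternative that was run, and it was lost under several. The count of members called was 0 with no batch term, with library size alone, after thinning and in batch 2 alone, and it ran from 0 to 1 when each library was left out. The members' median was below 0 in every fit that was run and ran from -0.22 to -0.11 when each library was left out. Genes called in all, 315 (113 higher, 202 lower), came to 15 (1 and 14) with no batch term, 601 (256 and 345) with DESeq2, 595 (227 and 368) with no filter, 173 (63 and 110) in batch 1 alone and 0 (0 and 0) in batch 2 alone. With the replicate block 454 were called (175 higher, 279 lower), and KIF20A, CDCA8 and NAT10 kept their calls. In that fit 15 members against 12 were lower at an unadjusted p under 0.05, and the share of all genes at that threshold is not given. With library size alone the split was 138 higher and 149 lower. Leaving out each library gave 75 to 286 genes called (28 to 107 higher, 47 to 179 lower), the fewest without siNAT10 replicate 2. NAT10 had a log2 fold change of -1.58 in batch 2 alone (edgeR adjusted p = 0.086). The interaction of batch and siRNA gave 1 gene with DESeq2, 15 genes with no filter and 0 to 2 with a library left out, and no member in any of them. Members called between batches were 8 with no filter (3588 of all genes) and 2 to 10 with a library left out (2531 to 3627 of all genes). The share of member promoter windows with a CHR was 65.2% when TTTGAA alone was searched. Fewer libraries or genes enter several of these fits; the cause of the other changes was not tested. KIF18A, with the lowest mean CPM of the members tested, had a standard error of 0.26 on the log2 scale, and TOP2A, with the highest, of 0.17.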
